A study of Mus musculus with 4 samples.

Results

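Caspases and the Bcl2 family decide whether an intestinal epithelial cell dies by apoptosis, and 9 of their genes were followed here in jejunal crypts that had lost the transcription factor YY1. The 9 genes were the initiator caspases Casp8 and Casp9, the anti-death Bcl2 proteins Bcl2, Bcl2l1 and Mcl1, the pore former Bak1, the BH3-only proteins Bad and Bid, and the mitochondrial flavoprotein Aifm1. Members were all probe sets whose platform annotation names 1 of these genes and no other, which gave 27 probe sets of the 45037 tested, for 9 of 18193 genes. On such an array a probe set is read with several short probes, and some probe sets can match more than 1 transcript. All 27 were tested, since no filter on dim probe sets was applied.

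The knockout mice carried floxed Yy1 alleles (f/f) and Vil-Cre-ERT2, a Cre that tamoxifen switches on and that the Villin promoter directs to gut epithelium, and tamoxifen was given for 4 days. The other group is labelled control. A tamoxifen time of 4 days is recorded for the arrays of both groups. The sources used here do not name the control's alleles, nor say clearly that the control mice received tamoxifen. Effects of Cre or tamoxifen therefore cannot be told apart from loss of Yy1. Both groups are labelled as C57BL/6J enriched, and the sources used here give no age or sex of the animals. RNA came from crypt epithelium of the jejunum freed with EDTA, with 2 arrays per group whose titles call them biological replicates.

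In the mitochondrial pathway of apoptosis, BAK1 and its relative BAX open the outer mitochondrial membrane, BCL2, BCL-XL (the main product of Bcl2l1) and MCL1 hold them back, and BH3-only proteins such as BAD and BID tip the balance towards death. Released cytochrome c then assembles with APAF1 into the apoptosome, which activates caspase-9. Death receptors at the cell surface activate caspase-8, which can cut BID and so couple to the mitochondrial route. In the crypt these proteins are known for setting how readily dividing cells die after DNA damage.

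Values are intensities as deposited. Log2 differences are knockout minus control on log2(intensity + 16), which understates the change of dim probe sets, and are given ± SE from limma with n = 2 arrays per group. A probe set was called at an adjusted p under 0.05, with Benjamini-Hochberg adjustment over all probe sets. Yy1 itself was low in both knockout arrays. Its brightest probe set read 69.4 and 68.1 in knockout crypts, against 1648 and 1681 in control crypts, and all 4 of its probe sets were called lower. As a rough guide to background, the 27 Bacillus control probe sets had a median between 31.9 and 35.6 on each array. A sign of RNA quality moved with the groups. For Gapdh the 3' control probe set exceeded the 5' one by 1.70 and 1.64 (log2) in knockout arrays, against 1.44 and 1.39 in control arrays. For Actb the gap between groups was smaller, with 0.33 and 0.29 in knockout arrays, against 0.28 and 0.24 in control arrays. The part of RNA quality in the results was not tested.

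Within the family Casp9 fell with 1 of its 3 probe sets, Bcl2l1 with 3 of its 4 and Bad with 1 of its 2, and Bcl2 rose with 1 of its 5. Mcl1, Bak1, Bid, Casp8 and Aifm1 had no called probe set. In counts, 5 of the 27 member probe sets were lower, or 18.5%, against 9.09% of all probe sets, and 1 was higher, or 3.70%, against 10.9% of all. Over both directions 20.0% of all probe sets were called. The median log2 difference was -0.10 over the members and 0.01 over all probe sets. Knockout and control arrays did not overlap in 20 member probe sets (74.1%), against 59.9% of all probe sets. Of these, 16 were lower and 4 higher in the knockout, where 28.4% and 31.5% of all probe sets lay in the same way. The calls depended on single arrays. Fewer member probe sets were lower without knockout replicate 1, control replicate 1 or control replicate 2, each left out in turn. More were lower without knockout replicate 2, and more were higher without control replicate 1. The higher call was lost without knockout replicate 1 and without control replicate 2. Each such fit leaves 1 array in a group. Over all probe sets, calls in both directions fell in every one of these fits.

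**Figure D1:**
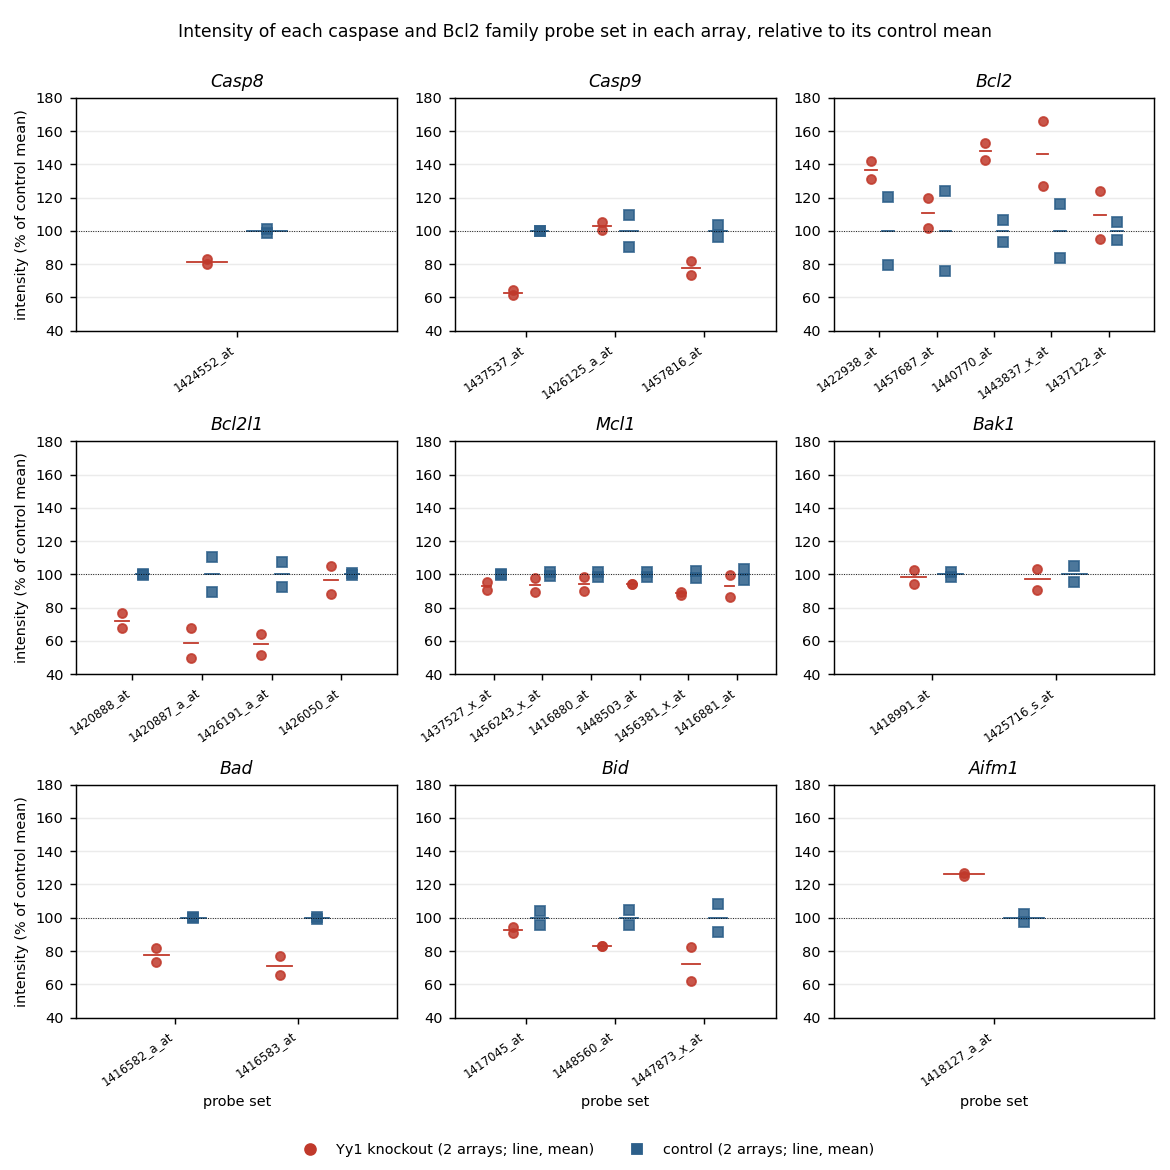
Intensity of each of the 27 member probe sets in each array as a percent of the mean of the 2 control arrays of that probe set (vertical axis), with 1 panel per gene and probe sets ordered from bright to dim along the horizontal axis. Circles are knockout arrays and squares control arrays, with short lines at group means. The brightest Casp9 probe set stood at 61.2% and 64.3% in knockout arrays, while the 6 Mcl1 probe sets stayed between 86.6% and 99.8% there.

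Casp9 encodes the initiator caspase of the apoptosome. Its brightest probe set read 515 and 540 in knockout crypts, against 839 and 843 in control crypts. The groups were far apart relative to the spread within each, and the log2 difference was -0.66 ± 0.10 (adjusted p = 0.00476 by limma), or 1.58-fold lower. This was the smallest p of the 27, and the probe set was called in all 12 alternatives run on it, with log2 differences between -0.69 and -0.61. The dimmest of its 3 probe sets read 114 and 127 in knockout crypts, against 149 and 160 in control crypts. The groups did not overlap, but the difference of -0.32 ± 0.11 missed the threshold (adjusted p = 0.0731 by limma). The remaining probe set, close to it in brightness, read 141 and 148 in knockout crypts and 127 and 154 in control crypts. Here the groups overlapped, with a difference of 0.04 ± 0.12 and a 95% interval from -0.23 to 0.32, which does not overlap the interval of the brightest (-0.89 to -0.43). Averaged over its 3 probe sets Casp9 gave -0.31 (adjusted p = 0.0474 by limma). The 3 did not give 1 value for the gene, and which transcripts each one reports on was not analysed here.

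Casp8 encodes the initiator caspase of death receptors and has 1 probe set. It read 1502 and 1454 in knockout crypts, against 1785 and 1838 in control crypts. Both knockout arrays were below both controls, but the difference of -0.29 ± 0.10 missed the threshold (adjusted p = 0.0797 by limma). Its 95% interval ran from -0.52 to -0.06. It passed with a pseudocount of 64 (adjusted p = 0.0324), a trended and robust variance prior (0.0297) and the mean over probe sets. Under the other processing of all 4 arrays it missed the threshold, with an adjusted p by limma of up to 0.123. With 1 array left out in turn, the difference lay between -0.31 and -0.27.

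Among the anti-death proteins, Bcl2l1 fell with 3 of its 4 probe sets. Of these the dimmest read 157 and 196 in knockout crypts, against 282 and 328 in control crypts. The knockout arrays were below both controls, by -0.74 ± 0.13 on the log2 scale, or 1.67-fold (adjusted p = 0.00950 by limma). The second read 163 and 221 in knockout crypts, against 294 and 362 in control crypts (-0.73 ± 0.16, adjusted p = 0.0194 by limma). The brightest read 253 and 287 in knockout crypts, against 375 and 374 in control crypts (-0.45 ± 0.11, adjusted p = 0.0241 by limma). In all 3, knockout replicate 1 was the lowest array. The fourth was dim, at 53.1 and 44.8 in knockout crypts and 51.0 and 50.3 in control crypts, with overlapping groups (-0.04 ± 0.11).

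Calls of Bcl2l1 depended on which array was left out, while the direction of the 3 called probe sets held each time. Without knockout replicate 2 all 3 stayed called, with adjusted p by limma of 0.0247 for the brightest, 0.00902 for the second and 0.00731 for the third. Without knockout replicate 1 the third stayed called (-0.59, adjusted p = 0.0431), while the second (-0.53, 0.0805) and the brightest (-0.37, 0.108) did not. Without control replicate 1 the second (0.0385) and the third (0.0300) stayed called, and the brightest had the same difference of -0.45 with an adjusted p of 0.111. Without control replicate 2 none of the 3 was called, with differences of -0.45, -0.59 and -0.64 for the brightest, the second and the third and adjusted p by limma of 0.111, 0.114 and 0.0648.

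Bcl2, the founding anti-death protein of the family, was higher by the means of all 5 probe sets and was called with 1. The called one, the third in brightness, read 152 and 142 in knockout crypts, against 106 and 92.7 in control crypts. Both knockout arrays were above both controls, and the log2 difference was 0.50 ± 0.11 (adjusted p = 0.0181 by limma), or 1.41-fold. That call was lost without knockout replicate 1 (adjusted p = 0.0799) and without control replicate 2 (0.119). The brightest probe set read 922 and 853 in knockout crypts, against 782 and 519 in control crypts. The control arrays were far apart and the groups did not overlap, with a difference of 0.47 ± 0.18 (adjusted p = 0.120 by limma). Its size depended on which control array was kept: the difference was 0.18 without control replicate 2 and 0.76 without control replicate 1. The fourth read 154 and 118 in knockout crypts and 77.7 and 108 in control crypts (0.49 ± 0.17, adjusted p = 0.0885 by limma). The second and the fifth overlapped between groups, with differences of 0.17 ± 0.21 and 0.10 ± 0.13. Their signs depended on single arrays, with -0.16 for the second without control replicate 2 and -0.05 for the fifth without knockout replicate 1.

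Mcl1, a short-lived anti-death protein, was bright and had 6 probe sets. Its brightest read 3959 and 4158 in knockout crypts and 4350 and 4383 in control crypts. Over the 6 probe sets the log2 differences lay between -0.17 and -0.09 with SE of 0.10 to 0.11, and none was called (adjusted p from 0.281 to 0.620 by limma). Both knockout arrays were below both controls in 5 of the 6, as they were in 28.4% of all probe sets. The widest bounds of the 95% intervals over the 6 were -0.40 and 0.16. These probe sets may share target sequence and are not independent measurements.

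**Figure D2:**
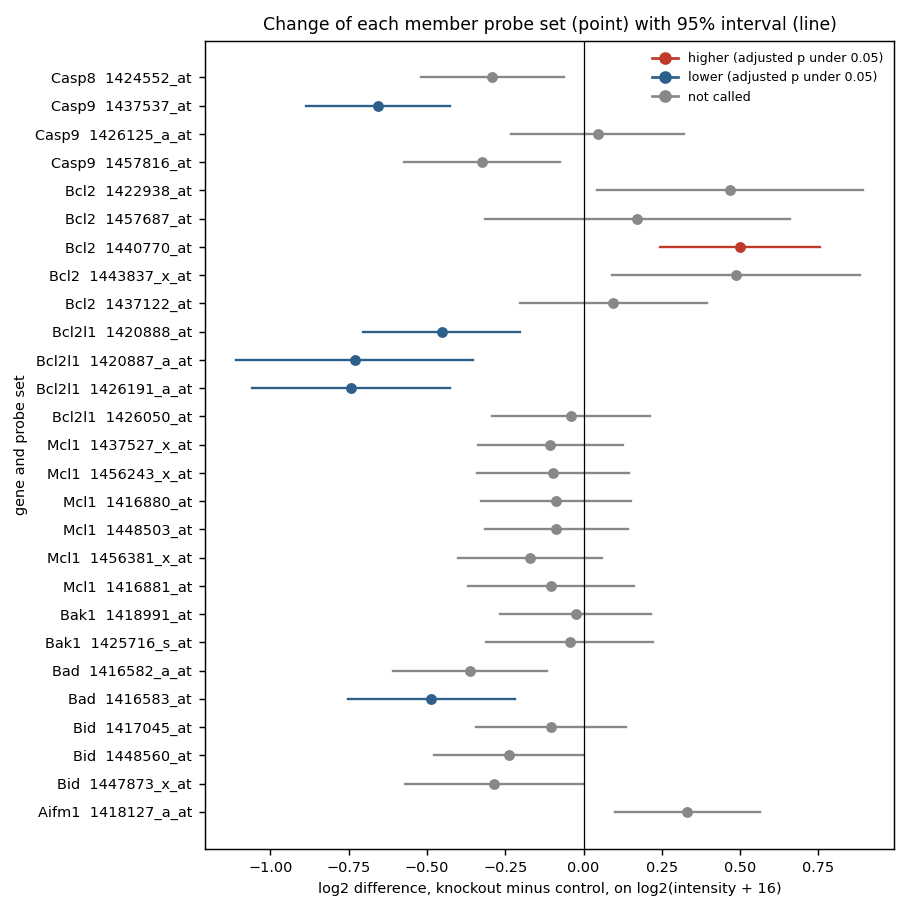
Log2 difference of each of the 27 member probe sets, knockout minus control on log2(intensity + 16) (horizontal axis), with genes and probe sets down the page; points are estimates, lines 95% intervals from limma, and colours mark calls. The 5 lower calls belong to Casp9, Bcl2l1 and Bad and the higher call to Bcl2.

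Bak1, which forms pores in the outer mitochondrial membrane, was not called with either probe set. Its brighter probe set read 1729 and 1579 in knockout crypts and 1653 and 1710 in control crypts (-0.02 ± 0.10, 95% interval -0.27 to 0.22). The other read 1206 and 1375 in knockout crypts and 1266 and 1395 in control crypts (-0.04 ± 0.11, 95% interval -0.31 to 0.22). The groups overlapped in both. The sign changed for the brighter one without knockout replicate 2 (0.04), and for the other without knockout replicate 1 (0.05) and without control replicate 2 (0.02).

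Bad encodes a BH3-only protein that binds BCL2 and BCL-XL and is held inactive by phosphorylation. Its dimmer probe set read 632 and 746 in knockout crypts, against 974 and 963 in control crypts. The control arrays were close together and both knockout arrays lay below them, by -0.49 ± 0.11, or 1.40-fold (adjusted p = 0.0241 by limma). The brighter one read 851 and 951 in knockout crypts, against 1165 and 1156 in control crypts (-0.36 ± 0.10). Its adjusted p by limma, 0.0503, fell just outside the threshold, and it passed with a pseudocount of 64, quantile normalization, median scaling, a dim-probe filter, a trended and robust prior, 1 probe set a gene, or without knockout replicate 2, among the fits without a block. Over all its alternatives that adjusted p lay between 0.0276 and 0.197. The call of the dimmer probe set was lost without knockout replicate 1 (adjusted p = 0.106), without control replicate 1 (0.113) and without control replicate 2 (0.104), with the same direction.

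YY1 binds promoters at a motif with the core letters AAGATGG, so the promoter windows of the members were searched for these letters on both strands. All 9 genes matched the RefSeq table (GRCm38.p6), with 12 windows that run from 250 bases before to 50 bases after a start site. The letters stood in 2 of the 12 windows (16.7%), against 6.37% of 32544 distinct windows of all genes. The looser letters AANATGG, which include the first motif, stood in the same 2 windows, against 16.1% of all. The 2 windows belong to Bad, which was lower with 1 probe set, and Bak1, which was not called. They are shown with the window of Casp9, the member with the smallest p, which holds neither motif. Windows are in the gene's own direction, at chr19:6941611-6941910 (plus strand) for Bad, chr17:27028578-27028877 (minus strand) for Bak1 and chr4:141793362-141793661 (plus strand) for Casp9, with capitals marking AAGATGG.
Bad: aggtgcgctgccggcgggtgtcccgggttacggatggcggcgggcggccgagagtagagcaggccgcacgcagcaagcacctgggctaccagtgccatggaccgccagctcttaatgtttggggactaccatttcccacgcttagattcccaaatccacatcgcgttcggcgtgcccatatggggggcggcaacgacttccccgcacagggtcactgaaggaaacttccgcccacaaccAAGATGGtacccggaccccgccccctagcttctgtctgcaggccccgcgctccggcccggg
Bak1: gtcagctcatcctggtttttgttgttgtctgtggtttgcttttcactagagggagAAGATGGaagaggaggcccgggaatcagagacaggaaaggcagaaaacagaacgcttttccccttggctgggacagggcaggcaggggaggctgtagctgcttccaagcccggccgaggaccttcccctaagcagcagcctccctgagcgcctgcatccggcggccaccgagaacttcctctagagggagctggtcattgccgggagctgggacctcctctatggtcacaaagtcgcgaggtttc
Casp9: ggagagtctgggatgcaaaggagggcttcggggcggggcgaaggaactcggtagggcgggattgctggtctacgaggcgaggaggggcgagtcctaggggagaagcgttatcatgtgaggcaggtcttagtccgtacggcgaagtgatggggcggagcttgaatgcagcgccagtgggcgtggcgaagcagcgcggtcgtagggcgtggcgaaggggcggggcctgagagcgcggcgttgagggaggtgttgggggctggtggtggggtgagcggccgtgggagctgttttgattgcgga
In Bad the letters begin 11 bases before the start site, and in Bak1 195 bases before it. Bad has another window and Bcl2l1 has 3 windows, in which neither motif was found. A match describes letters only; binding of YY1 was not measured in these data.

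Bid, the BH3-only protein cut by caspase-8, had 3 probe sets. Its brightest read 220 and 229 in knockout crypts and 232 and 253 in control crypts (-0.10 ± 0.10, adjusted p = 0.548 by limma). The second read 132 and 131 in knockout crypts and 151 and 165 in control crypts (-0.24 ± 0.10, adjusted p = 0.150 by limma). The third was at or below the Bacillus medians, at 23.3 and 17.5 in knockout crypts and 30.6 and 25.8 in control crypts, and gives no usable difference, although it is among the 16 lower probe sets without overlap counted above. Knockout arrays were below both controls in the other two, and none of the 3 was called.

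Aifm1 encodes a flavoprotein of the mitochondrial intermembrane space that serves the respiratory chain and can move to the nucleus in caspase-independent death. Its only probe set read 2506 and 2466 in knockout crypts, against 2023 and 1922 in control crypts. Both knockout arrays were above both controls, by 0.33 ± 0.10, or 1.26-fold, but the adjusted p by limma was 0.0540. It passed with a pseudocount of 64 (0.0224), quantile normalization (0.0442), the dim-probe filter (0.0446) and the trended and robust prior (0.0106). In the fits by gene it passed with 1 probe set a gene (0.0440) and with the mean over probe sets. It was not called with a pseudocount of 1 or with median scaling. With 1 array left out in turn, the log2 difference lay between 0.30 and 0.37.

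**Figure D3:**
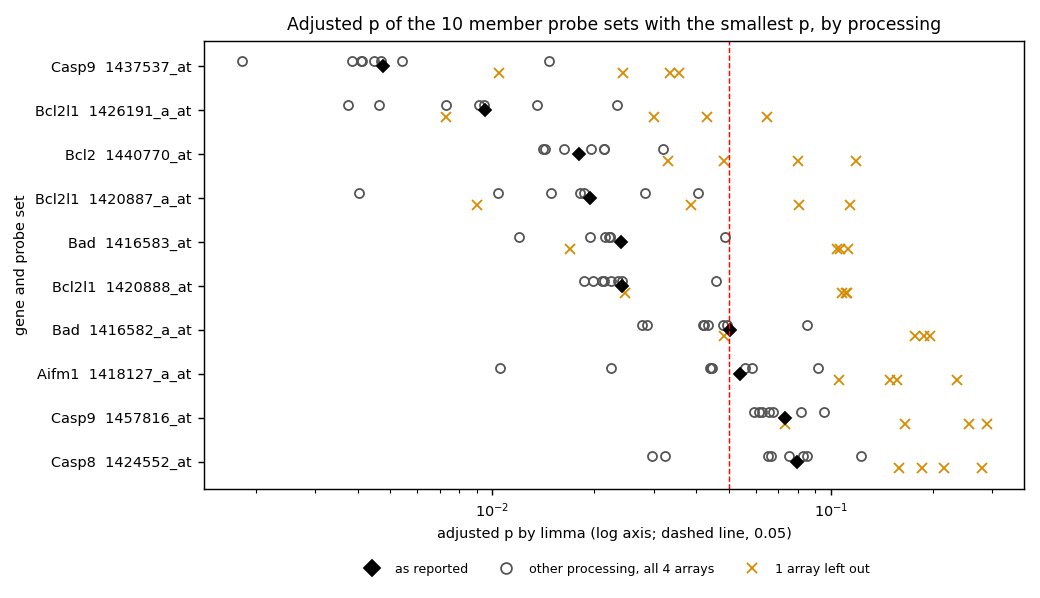
Adjusted p by limma (horizontal log axis, dashed line at 0.05) of the 10 member probe sets with the smallest p (down the page); diamonds are the reported fit, open circles other processing of all 4 arrays, crosses fits with 1 array left out. The brightest Casp9 probe set stayed below 0.05 throughout, up to 0.0356, while the brighter Bad probe set (0.0503) and Aifm1 (0.0540) lay next to the line.

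Counted by the brightest probe set of each gene, 2 of 9 members were lower (Casp9 and Bcl2l1), against 10.4% of 18193 genes, and 0 were higher by limma, against 12.6% of genes. Over both directions 23.0% of genes were called. The arrays of the groups did not overlap in 8 of the 9, against 62.0% of genes, with 6 lower and 2 higher, against 29.3% and 32.7% of genes. At an unadjusted p under 0.05 limma counted 4 lower and 2 higher. The share of all genes at that unadjusted threshold was not counted, so such counts, here and for the lists below, lack a background. Leaving out knockout replicate 1, control replicate 1 or control replicate 2 gave a lower count of 1 each time. With all probe sets of a gene averaged, 4 were lower and 1 higher.

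The rest of the death machinery was read by the brightest probe set of each gene in 8 lists. Of 71 listed genes 63 were measured, and the others were not analysed here. Of the 54 that are no members, 6 were higher and 7 lower, against 12.6% and 10.4% of all genes, and their median log2 difference was 0.03, against 0.01 over all genes.

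Of 8 caspases 3 fell and 1 rose (median -0.19). Beside Casp9, Casp6, an executioner caspase, read 428 and 627 in knockout crypts, against 965 and 964 in control crypts (-0.88 ± 0.17, adjusted p = 0.0120 by limma). Its other probe set was also called (-0.51 ± 0.11). Casp1, which matures interleukin-1 and triggers pyroptosis rather than apoptosis, read 1668 and 1894 in knockout crypts, against 2377 and 2588 in control crypts (-0.48 ± 0.11, adjusted p = 0.0240 by limma). Casp4, the mouse caspase-11 of the inflammasome, read 778 and 847 in knockout crypts, against 554 and 654 in control crypts (0.42 ± 0.12, adjusted p = 0.0446 by limma). Casp4 lost its call in each fit with 1 array left out, with adjusted p from 0.0643 to 0.241, and with a pseudocount of 1 (0.0771) and quantile normalization (0.0586). Casp1 lost it without knockout replicate 1 (0.108), control replicate 1 (0.0731) and control replicate 2 (0.139), and Casp6 without control replicate 1 (0.0600) and control replicate 2 (0.0607).

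Of 5 anti-death Bcl2 proteins Bcl2l1 fell and 0 rose by limma (median -0.09), with 1 at an unadjusted p under 0.05 in each direction. None of 2 multidomain pro-death genes (Bak1 and Bok, median 0.15), of 8 BH3-only genes (median -0.08) and of 11 apoptosome and mitochondrial factors (median 0.04) was called by limma. At an unadjusted p under 0.05 these 3 lists held 1, 0 and 3 higher and 0, 1 and 0 lower genes. Of the p53-induced BH3-only genes, Bbc3 (PUMA) read 121 and 144 in knockout crypts and 107 and 115 in control crypts (0.22 ± 0.12, adjusted p = 0.237 by limma). Pmaip1 (NOXA) read 356 and 511 in knockout crypts and 403 and 535 in control crypts, with overlapping groups (-0.12 ± 0.19). These last 2 genes were chosen after their values were seen. Apaf1, the scaffold that activates caspase-9, was likewise chosen and read 828 and 932 in knockout crypts and 759 and 958 in control crypts (0.04 ± 0.14).

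In the death receptor list 3 of 12 genes rose and 3 fell (median -0.35), and it held the lowest and the highest log2 difference of the 63 measured genes. Ripk3, the kinase of necroptosis, a lytic death without caspases, read 700 and 685 in knockout crypts, against 299 and 312 in control crypts (1.14 ± 0.10, adjusted p = 0.000915 by limma). Mlkl, the membrane-breaking protein that RIPK3 phosphorylates, read 397 and 408 in knockout crypts, against 161 and 185 in control crypts (1.15 ± 0.11, adjusted p = 0.00120 by limma). Both were more than 2-fold higher, with no overlap between groups.

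Tnfsf10, the death ligand TRAIL, read 263 and 232 in knockout crypts, against 597 and 590 in control crypts (-1.21 ± 0.11, adjusted p = 0.000963 by limma). A second of its 3 probe sets also fell (-0.95 ± 0.12) and the third was not called (-0.41 ± 0.18). Tnfrsf10b, its receptor in the mouse, read 221 and 215 in knockout crypts, against 138 and 110 in control crypts (0.75 ± 0.12, adjusted p = 0.00673 by limma), while its other probe set gave 0.36 ± 0.12 and was not called. The TNF receptor gene Tnfrsf1a read 544 and 561 in knockout crypts, against 725 and 787 in control crypts (-0.44 ± 0.10, adjusted p = 0.0225 by limma). Its adaptor Tradd read 610 and 649 in knockout crypts, against 897 and 935 in control crypts (-0.53 ± 0.10, adjusted p = 0.0110 by limma), with differences of 0.17 ± 0.10 and -0.01 ± 0.10 for its other probe sets. Without knockout replicate 1, control replicate 1 and control replicate 2, the adjusted p of Tnfrsf1a was 0.0869, 0.0706 and 0.138, and that of Tradd 0.0522, 0.0538 and 0.0736.

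Of 9 measured inhibitors of apoptosis Naip5 and Naip6 fell and 0 rose by limma, with 1 rising at an unadjusted p under 0.05 (median 0.04). Naip6 read 1530 and 1585 in knockout crypts, against 2795 and 2993 in control crypts (-0.89 ± 0.10, adjusted p = 0.00209 by limma). Naip5 read 425 and 606 in knockout crypts, against 1040 and 1114 in control crypts (-1.06 ± 0.16, adjusted p = 0.00535 by limma). In mice NAIP5 and NAIP6 are sensors of flagellin for the inflammasome, and as close paralogs their probe sets may share targets. Of 8 caspase substrates and nucleases Dffb and Dffa rose and 0 fell by limma, with 1 falling at an unadjusted p under 0.05 (median 0.05). Dffb, the caspase-activated DNase, read 456 and 385 in knockout crypts, against 254 and 243 in control crypts (0.72 ± 0.12, adjusted p = 0.00610 by limma), and its other probe set also rose (0.83 ± 0.11). Dffa, its inhibitor and chaperone, read 610 and 548 in knockout crypts, against 444 and 421 in control crypts (0.41 ± 0.11, adjusted p = 0.0348 by limma). The other, dimmer Dffa probe set was also called higher (0.38 ± 0.10, adjusted p = 0.0370 by limma). The brighter one lost its call with a pseudocount of 1 (adjusted p = 0.0623 by limma). It also lost it without knockout replicate 1, control replicate 1 or control replicate 2.

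**Figure D4:**
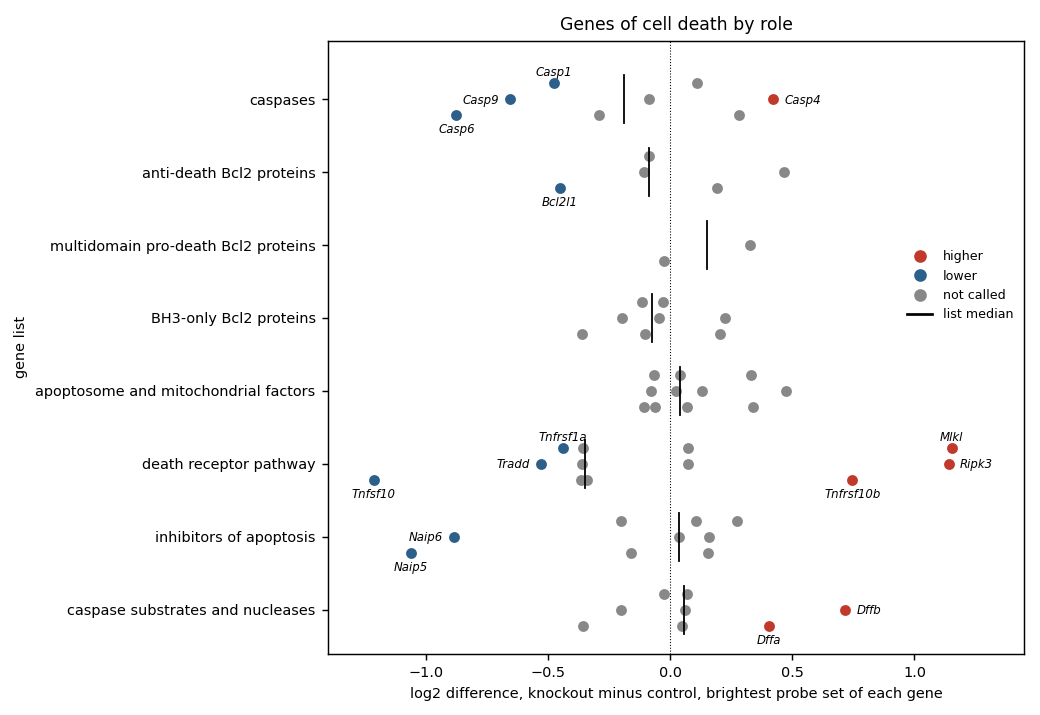
Log2 difference, knockout minus control, of the brightest probe set of each measured gene (horizontal axis), by list of cell death genes (down the page); black bars are list medians, and red and blue points are genes called higher and lower. Ripk3 (1.14) and Mlkl (1.15) stand at the right and Tnfsf10 (-1.21) at the left of the death receptor list.

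Markers of other cells moved beside these values. Of 14 enterocyte markers 9 were lower and 0 higher by limma (0 higher at an unadjusted p under 0.05). Alpi, the intestinal alkaline phosphatase, read 773 and 1645 in knockout crypts, against 3572 and 3785 in control crypts (-1.69 ± 0.30). The summed intensity of the list was 46950 and 68091 in knockout arrays, against 93804 and 93083 in control arrays, and none was at 0. Knockout replicate 1, the lower of the pair, was also the lower knockout array for the brightest Casp9 probe set, the 3 called Bcl2l1 probe sets, both Bad probe sets and the brighter Casp6 one. Knockout replicate 1 was the higher knockout array for Casp8, Aifm1, every Bcl2 probe set, the other called Casp6 probe set and the brighter Bak1 one. The same held for the fourth Bcl2l1 probe set and for some of Mcl1 and Bid. Fewer cells of a type and less RNA per cell cannot be told apart in such bulk samples, and the part of enterocytes in the members' values was not tested. Epithelial identity was as labelled, with Epcam at 9077 and 9624 in knockout crypts and 10119 and 10334 in control crypts, and 0 of 9 epithelial markers called by limma (2 lower and 0 higher at an unadjusted p under 0.05).

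Immune cells also express Bcl2, and their called markers were lower, while uncalled ones went either way. Of 16 measured immune markers 3 were lower (Ptprc, Cd3g and Cd74) and 0 higher by limma. At an unadjusted p under 0.05 by limma 1 was higher and 4 lower, and the list's median log2 difference was -0.02. Cd74 was far brighter than Ptprc, with 1243 and 1715 in knockout crypts, against 3013 and 3065 in control crypts. Whether its signal came from immune cells or from epithelium was not tested. The list's summed intensity was 12356 and 13811 in knockout arrays, against 14728 and 15131 in control arrays. The lysozyme gene Lyz2, listed here as an immune marker, made up most of it. It read 7285 and 7977 in knockout arrays and 7550 and 7845 in control arrays. The myeloid genes Cd68 (91.8 to 123), Itgam (51.4 to 58.9) and Adgre1 (23.3 to 63.7) were dim on every array. The Paneth cell lysozyme gene Lyz1 read 10761 and 11538 in knockout arrays and 11672 and 12081 in control arrays. Which cells gave the Lyz2 signal was not tested, nor was the part of immune cells in the Bcl2 values. Ptprc, the pan-leukocyte marker CD45, read 293 and 349 in knockout crypts, against 410 and 458 in control crypts, and the B cell gene Cd79a stayed near background between 35.6 and 40.4. Among T cell and cytotoxic genes log2 differences were -0.69 for Cd3g, -0.46 for Cd3e, -0.02 for Gzma, 0.02 for Cd8a, 0.17 for Cd3d, 0.17 for Cd7, 0.26 for Gzmb and 0.32 for Cd8b1, and of these Cd3g was called. Cd3e read 128 and 189 in knockout crypts and 209 and 230 in control crypts. Of 8 measured crypt stem and progenitor markers 2 rose and 1 fell. The genes that rose were Top2a (0.70 ± 0.10) and Pcna (0.38 ± 0.10). Olfm4 fell, with 3662 and 3332 in knockout crypts, against 5463 and 5279 in control crypts (-0.62 ± 0.10). Mki67 was not called and read 5820 and 5995 in knockout crypts and 4646 and 4912 in control crypts (adjusted p = 0.0722 by limma). The stem cell marker Lgr5 was dim in both groups, at 63.2 and 59.6 in knockout crypts and 69.2 and 66.3 in control crypts. Of the remaining lists, goblet cells had 2 of 8 lower, mesenchyme and muscle 1 of 10 lower, Paneth cells 1 of 5 higher and endothelium 0 of 6 called by limma (0 at an unadjusted p under 0.05). Col1a2 of mesenchyme read 126 and 121 in knockout crypts and 137 and 208 in control crypts, and Pecam1 of endothelium 86.5 and 91.2 in knockout crypts and 95.7 and 61.5 in control crypts.

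Genes with a pattern most like that of the brightest Casp9 probe set over the 4 arrays, by Euclidean distance of the log2 values from their control mean, were Glb1 (distance 0.025), Smim22 (0.027) and Klk6 (0.036). Glb1, the lysosomal beta-galactosidase, read 232 and 249 in knockout crypts, against 390 and 391 in control crypts. Klk6 was dim, between 35.1 and 65.2. The distance rests on 4 arrays only.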

How the data were processed

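Per the labels' protocols, RNA was extracted with Trizol, labelled with biotin and read on Affymetrix arrays. The deposited table holds 1 linear intensity value per probe set and array; how probes were summarised, background-corrected and normalized is not given in the sources used here. Array medians lay between 139 and 143 and the lowest value was 1. Of 45101 probe sets, 64 array controls were left out of the tests. Names came from the platform annotation held by GEO, in which 34945 probe sets name 1 gene; old symbols were replaced by way of their Entrez IDs (RefSeq, GRCm38.p6). A gene in a list was represented by its probe set with the highest mean, for 18193 genes.

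Log2(intensity + 16) was fitted without a block for knockout minus control, using lmFit and eBayes of limma 3.58.1 (R 4.3.3), with 7.34 total degrees of freedom and Benjamini-Hochberg adjustment over 45037 probe sets. The fit was tested on simulated data. Alternatives were other pseudocounts (1 and 64), quantile or median scaling, a dim-probe filter, another variance prior, a replicate block, 1 value per gene, and each array left out. The members, gene lists and alternatives were chosen with earlier results of these data known. Named genes were all members, Yy1, 8 markers, up to 5 called genes per list and direction, and the 3 genes most like the member with the smallest p. Apaf1, Bbc3, Pmaip1, Lyz1, Top2a, Pcna, Olfm4 and further immune markers were chosen after their values were seen. Whether replicates came from separate animals beyond the word biological was not given. The p-values rest on the spread between these arrays, which eBayes shares in part over all probe sets. The number of arrays limits the precision.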

Additional observations from a re-analysis of the deposited data

How the results depend on the processing

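Other settings moved counts more than directions. Of the members, 2 probe sets were higher with a pseudocount of 64, quantile normalization, a filter at a mean of 64, a trended and robust prior and the replicate block (1 as reported). By genes, 1 was higher under each of these and with 1 probe set a gene or the mean over probe sets (0 as reported), and 4 were lower with a pseudocount of 64, the trended prior and the mean over probe sets (2 as reported). With 1 array left out, member probe sets numbered 1 to 6 lower and 0 to 2 higher, member genes 1 to 3 lower and 0 to 1 higher, listed genes of cell death 4 to 11 lower and 4 to 8 higher, and all probe sets 1949 to 3908 lower and 2056 to 4629 higher, while all 4 Yy1 probe sets stayed lower. The sign changed, each time for a probe set that was not called, in 6 of them. Over the fits with 1 array left out, log2 differences ran from -0.081 to 0.171 for the uncalled overlapping probe set of Casp9 (negative without control replicate 1), from -0.16 to 0.51 for the second of Bcl2 (negative without control replicate 2), from -0.054 to 0.245 for the fifth of Bcl2 (negative without knockout replicate 1), from -0.133 to 0.052 for the fourth of Bcl2l1 (positive without knockout replicate 2), from -0.090 to 0.040 for the brighter of Bak1 (positive without knockout replicate 2) and from -0.138 to 0.049 for the other of Bak1 (positive without knockout replicate 1, and 0.025 without control replicate 2). The cause of these moves was not tested; fits with 1 array left out have fewer samples and assume that a lone array varies like the other group. Same-numbered arrays deviated together at r = 0.096 over all probe sets, with 2 pairs, so the numbers were not taken as pairs. Under the replicate block the brightest Bcl2 probe set was called (0.47, adjusted p = 0.0489), as was the brighter one of Bad (-0.36, 0.0494). Probe set counts were not recomputed in the fits with 1 value per gene. Intensities of the dimmest Bid probe set lie at background, which limits any statement on it.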
